A study of Mus musculus with 34 samples.

Results

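The 10 genes described here encode ligands, receptors and intracellular mediators of transforming growth factor-β (TGF-β) and bone morphogenetic protein (BMP) signalling. They were chosen by name: the TGF-β ligands *Tgfb1*, *Tgfb2* and *Tgfb3*, the activin subunit *Inhba*, the BMP ligands *Bmp4* and *Bmp7*, the receptors *Tgfbr1* and *Tgfbr2*, the signal transducer *Smad3* and the inhibitor *Smad7*. All 10 were found among the 23509 genes of each count table, and all 10 were among the 15644 genes that passed the filter on low counts and were tested. They were compared between mouse kidneys by RNA sequencing of polyadenylated RNA.

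Kidneys of 34 mice on a C57BL6 background were collected on postnatal day 28 (P28), in 3 groups. *Pkd2*-KO mice (spelled Pdk2KO in the labels) carry floxed alleles of *Pkd2*, mutated in polycystic kidney disease, and a Pkhd1/cre transgene, whose promoter is active in kidney tubules, so deletion is limited to cells in which Cre was expressed. In 11 of these mice RGLS4326 was given under the skin at 20 mg per kg body weight on P10, P11, P12 and P19 (RGLS4326 group), and 11 others received phosphate-buffered saline on the same days (PBS group). The remaining 12 mice were non-transgenic and received no injection (UNT group), so the mutation and the injections cannot be told apart in comparisons with UNT. RGLS4326 is an anti-miR oligonucleotide that pairs with the seed end of the microRNA miR-17, and a control oligonucleotide was not analysed here.

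TGF-β ligands are secreted as latent complexes and, once activated, bind a type II receptor that recruits and phosphorylates a type I receptor. The type I receptor then phosphorylates Smad2 and Smad3, whereas BMP receptors phosphorylate Smad1, Smad5 and Smad9, and both kinds of Smad enter the nucleus with Smad4. In the kidney TGF-β is known for driving matrix production by fibroblasts in fibrosis, and BMP7 for its roles in nephron formation and in opposing TGF-β.

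One of the genes, *Tgfbr2*, belongs to the 18 miR-17 target genes from which the study built its pharmacodynamic signature, so the sequences that link miR-17 to these transcripts are shown first. The mature microRNAs of the miR-17 family, from RefSeq on GRCm38.p6 and written 5′ to 3′, share the seed (bases 2 to 8) given in capitals:
miR-17-5p: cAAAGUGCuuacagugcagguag
miR-20a-5p: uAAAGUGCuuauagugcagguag
miR-20b-5p: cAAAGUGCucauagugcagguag
miR-93-5p: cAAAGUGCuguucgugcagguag
miR-106a-5p: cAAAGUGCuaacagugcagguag
miR-106b-5p: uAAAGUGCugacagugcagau

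The complement of this seed was searched on the transcript strand of 1 3′UTR per gene, the longest in GENCODE on GRCm38. The searched words were GCACTTTA (an 8mer match), GCACTTT without the following A (7mer-m8) and CACTTTA without the preceding G (7mer-A1), and an 8mer was not counted again as a 7mer. Of 14193 tested genes with a 3′UTR, 4.26% held an 8mer, 10.5% a 7mer-m8, 9.70% a 7mer-A1 and 21.2% any of the 3. Among the 10 genes, *Tgfbr2* held an 8mer, *Tgfbr1* and *Tgfb3* each held a 7mer-A1, and *Smad7* held a 7mer-m8. No match was found in the 3′UTRs of *Tgfb1*, *Tgfb2*, *Inhba*, *Bmp4*, *Bmp7* and *Smad3*. The matches of the receptors and of *Tgfb3* are printed below in capitals with up to 10 bases on either side, since the treatment compared here is directed against the microRNAs above. The *Tgfbr2* match lies at chr9:116090073-116090080 on the minus strand, 298 bases into a 3′UTR of 6085 bases. That of *Tgfbr1* lies at chr4:47411233-47411239 on the plus strand, at base 456 of 4154. That of *Tgfb3* lies at chr12:86056750-86056756 on the minus strand, at base 1024 of 1035.
Tgfbr2: aataacgtttGCACTTTAttaatgcctg
Tgfbr1: cttaaactaaCACTTTAaactctatag
Tgfb3: gtaaagacctCACTTTAaggtg

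The libraries held between 17603122 and 54981992 reads in genes. Levels are given as CPM, the usual read counts scaled to library size, which was here the reads in tested genes times a TMM factor. The 10 genes were counted in every library, from 1 read of *Inhba* in a UNT kidney to 27524 reads of *Tgfbr2* in a PBS kidney. The deleted gene *Pkd2* was lower in every PBS kidney (98.0 to 215 CPM) than in every UNT kidney (220 to 338 CPM), and lay between 170 and 237 CPM in RGLS4326 kidneys. Markers of nephron segments and of other cells were present. The summed level of 6 proximal tubule genes was 11494 to 15040 CPM in UNT, 1440 to 4053 in PBS and 2389 to 4402 in RGLS4326 kidneys. Library PBS replicate 9 stood apart, with a median Spearman correlation with its own group of 0.969 against at least 0.984 for each other library. Values without it are given beside the named pathway genes whose calls it changed. Reads outside genes made up 12.9% to 14.9% of the reads in UNT, 6.08% to 11.0% in PBS and 5.82% to 14.6% in RGLS4326 libraries. Because UNT and PBS libraries did not overlap in this share, a fit with it as a covariate cannot separate it from the group in PBS vs UNT.

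To determine how the pathway differs between cystic and normal kidneys, PBS was compared with UNT. Of the 10 genes, 8 rose, *Bmp4* fell and *Bmp7* was not called at an adjusted p under 0.05 (edgeR quasi-likelihood test, Benjamini-Hochberg adjustment over all tested genes). Over all tested genes 43.1% were called higher and 39% lower, 82.1% in all, so a call in itself sets a gene little apart in this comparison. The sizes ranged more widely. The median log2 fold change of the 10 genes was 1.48, beside 0.04 for all tested genes, and 5 of the 10 (*Tgfb1*, *Tgfb2*, *Tgfb3*, *Inhba* and *Tgfbr2*) had every PBS kidney above every UNT kidney, which was seen for 22.7% of all tested genes (19.8% had every PBS kidney below). A rise of at least 1 on the log2 scale, reached by the same 5 genes, was called for 18.2% of all tested genes. Because whole kidneys were measured, more cells of a type and more RNA per cell cannot be told apart in any of these differences.

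**Figure D1:**
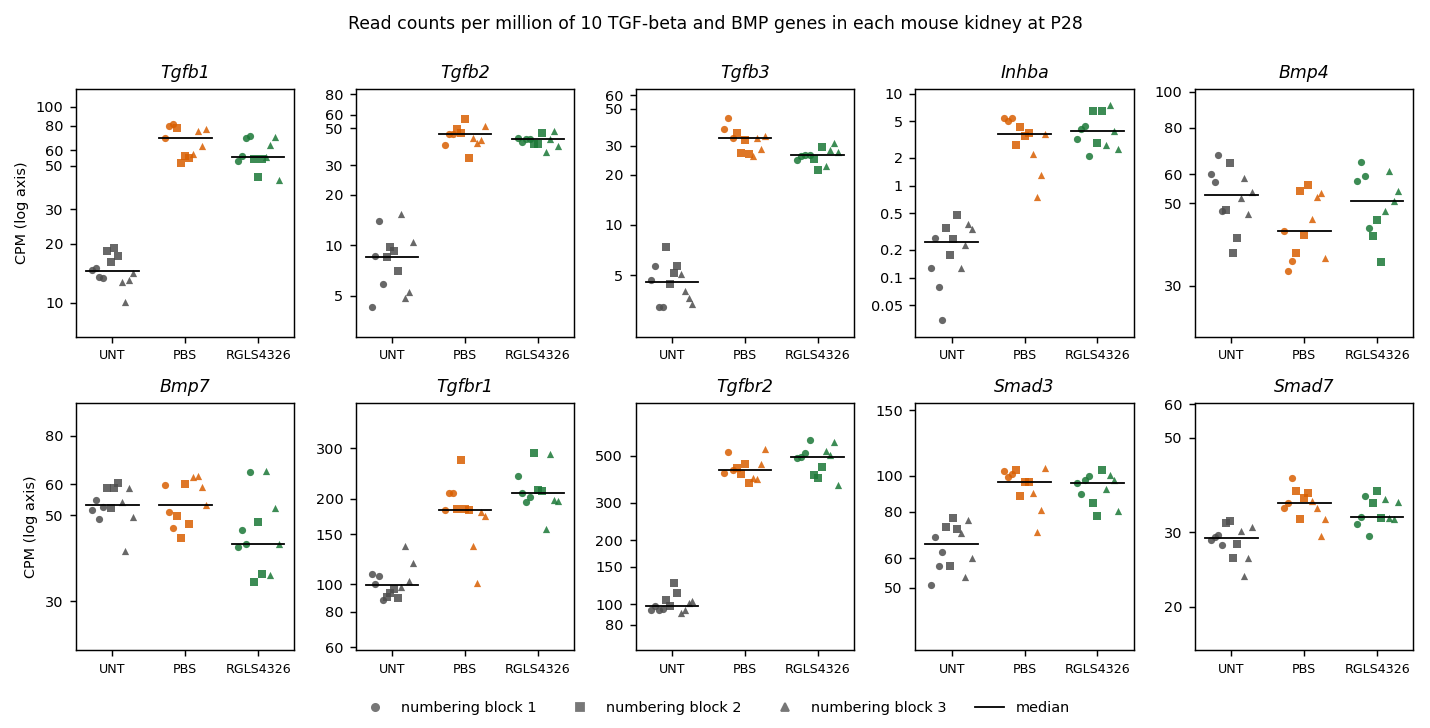
Level of each of the 10 genes in each of the 34 kidneys, in CPM on a log axis, by group, with symbols for the numbering block of the library and a line at the group median. The 3 TGF-β ligands, *Inhba* and *Tgfbr2* stand higher in every PBS and RGLS4326 kidney than in any UNT kidney, while *Bmp4* and *Bmp7* overlap among the groups.

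The 3 TGF-β ligands, the secreted proteins that start the signal, were all several times higher in cystic kidneys. *Tgfb1* (chromosome 7, 25687002 to 25705077, plus strand) was at 10.1, 14.4 and 19.0 CPM (lowest, median and highest of 12) in UNT and at 51.9, 69.0 and 82.1 CPM (of 11) in PBS kidneys. The groups were far apart, with a 4.57-fold difference (95% interval 3.95 to 5.29, adjusted p = 3.53e-20). *Tgfb2* (chromosome 1, 186622792 to 186705989, minus strand) was at 4.28, 8.56 and 15.3 CPM in UNT and at 33.1, 46.4 and 57.1 CPM in PBS kidneys, a 5.24-fold rise (4.25 to 6.47, adjusted p = 7.96e-17). Its spread among UNT kidneys was the widest of the 3 ligands, with a coefficient of variation of 40.3% beside 17.4% for *Tgfb1* and 27.0% for *Tgfb3*. *Tgfb3* (chromosome 12, 86056745 to 86079041, minus strand) was at 3.20, 4.54 and 7.33 CPM in UNT and at 25.8, 33.2 and 43.7 CPM in PBS kidneys. It rose 7.02-fold (5.96 to 8.26, adjusted p = 8.28e-22), and its interval lay above that of *Tgfb1*. Exons on the opposite strand overlap 2.14% of the exon bases of *Tgfb2*, 3.96% of those of *Bmp4* and, for 2 neighbours, 4.82% and 7.60% of those of *Tgfb3*. The strand setting of the counting was not stated, so these overlaps may have added or removed reads.

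*Inhba* (chromosome 13, 16011851 to 16031621, plus strand), which encodes the βA subunit of activin, a ligand that also signals through Smad2 and Smad3, was the least abundant of the 10 genes and had the largest fold change. It was at 0.0344, 0.246 and 0.480 CPM in UNT kidneys, on 1 to 19 reads, and at 0.757, 3.68 and 5.48 CPM in PBS kidneys, on 25 to 191 reads. Every PBS kidney was above every UNT kidney, and the fitted rise was 14.4-fold (9.16 to 22.8, adjusted p = 2.87e-13). The lowest PBS values were 0.757 CPM in replicate 9 and 1.31 CPM in replicate 10, and without replicate 9 the log2 fold change was 3.93 in place of 3.85.

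The BMP ligands differed less between the groups. *Bmp4* (chromosome 14, 46383520 to 46390669, minus strand), expressed by stroma and required in kidney development, was at 36.8, 52.7 and 67.7 CPM in UNT and at 32.9, 42.3 and 56.1 CPM in PBS kidneys. The groups overlapped, with 4 of 11 PBS kidneys below the lowest UNT kidney, and the fold change was 0.835 (0.717 to 0.973, adjusted p = 0.0278). The call rested on single libraries: it was lost without PBS replicate 2, 3, 4 or 11 or UNT replicate 3 or 6, with adjusted p from 0.0518 to 0.0589. Without PBS replicate 9 the log2 difference was -0.32 (adjusted p = 0.00972). With the share of reads outside genes as a covariate it was -0.31 and not called (adjusted p = 0.134). *Bmp7* (chromosome 2, 172868012 to 172940321, minus strand), made by tubules and podocytes, was at 40.3, 53.3 and 60.5 CPM in UNT and at 43.6, 53.0 and 63.0 CPM in PBS kidneys. Its fold change of 1.02 had an interval of 0.889 to 1.16 and an adjusted p of 0.831. With the share of reads outside genes as a covariate *Bmp7* was called lower, at -0.39 on the log2 scale (adjusted p = 0.00927). UNT and PBS libraries did not overlap in this share, so for *Bmp4* and *Bmp7* that fit cannot separate it from the group. Library totals without TMM gave *Bmp4* 0.041 (adjusted p = 0.714) and *Bmp7* 0.31 (adjusted p = 0.00378), but raised the median log2 fold change of all tested genes from 0.04 to 0.33. Relative to that median *Bmp4* was at -0.30 with TMM and -0.29 without, and *Bmp7* at -0.016 and -0.021.

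Both TGF-β receptors rose, by unequal amounts. *Tgfbr2* (chromosome 9, 116084293 to 116175360, minus strand), the type II receptor that binds the ligand first, was at 91.1, 98.1 and 126 CPM in UNT and at 370, 430 and 535 CPM in PBS kidneys. No PBS kidney came near the UNT range, and the rise was 4.33-fold (3.87 to 4.83, adjusted p = 5.23e-23), with the smallest standard error of the 5 genes that rose by at least 1 (0.0788 on the log2 scale). *Tgfbr1* (chromosome 4, 47353222 to 47414931, plus strand), the type I receptor kinase, was at 87.7, 99.1 and 137 CPM in UNT and at 101, 183 and 273 CPM in PBS kidneys. It rose 1.79-fold (1.54 to 2.09, adjusted p = 1.11e-08), with 9 of 11 PBS kidneys above the highest UNT kidney. The low end of the PBS range was replicate 9, at 101 CPM, and without this library the log2 fold change was 0.88 in place of 0.84.

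The Smads rose least. *Smad3* (chromosome 9, 63646767 to 63757994, minus strand), the transducer of TGF-β and activin receptors, was at 50.9, 65.4 and 77.0 CPM in UNT and at 70.3, 96.3 and 104 CPM in PBS kidneys. The fold change was 1.45 (1.31 to 1.60, adjusted p = 2.46e-08), and 10 of 11 PBS kidneys exceeded the highest UNT kidney, the exception being replicate 9. *Smad7* (on chromosome 18), an inhibitor that is itself induced by TGF-β and blocks type I receptors, was at 23.7, 29.0 and 31.8 CPM in UNT and at 29.4, 35.0 and 40.3 CPM in PBS kidneys. It rose 1.22-fold (1.13 to 1.31, adjusted p = 9.5e-06), the smallest rise among the 8 genes, although 10 of 11 PBS kidneys lay above the highest UNT value.

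Levels of different genes were compared as CPM per kilobase of annotated exon. In UNT kidneys the order was led by *Bmp4* at 23.5 ± 4.14 (mean ± SD, n = 12), followed by *Tgfbr1* at 15.6 ± 2.15, *Bmp7* at 13.3 ± 1.40, *Tgfbr2* at 12.3 ± 1.21 and *Smad3* at 11.7 ± 1.64 CPM per kb. Neighbours among these 5 had overlapping ranges, and only *Bmp4* exceeded the next gene in all 12 mice. *Smad7* followed at 6.33 ± 0.54, then *Tgfb1* at 2.93 ± 0.51, *Tgfb2* at 1.49 ± 0.60, *Tgfb3* at 1.36 ± 0.37 and *Inhba* at 0.0372 ± 0.0210 CPM per kb, and *Tgfb2* exceeded *Tgfb3* in 6 of 12 mice. In PBS kidneys the order differed: *Tgfbr2* came first at 53.4 ± 6.37 CPM per kb (n = 11), with no overlap with *Tgfbr1* at 28.05 ± 6.57, and *Bmp4* followed at 19.6 ± 3.80. *Tgfb1*, at 13.4 ± 2.23, stood beside *Bmp7*, at 13.5 ± 1.75, which it had been far below in UNT kidneys. The 10 genes kept this order in RGLS4326 kidneys except that *Smad7* and *Tgfb2* changed places, at 7.45 ± 0.55 and 7.29 ± 0.61 CPM per kb.

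**Figure D2:**
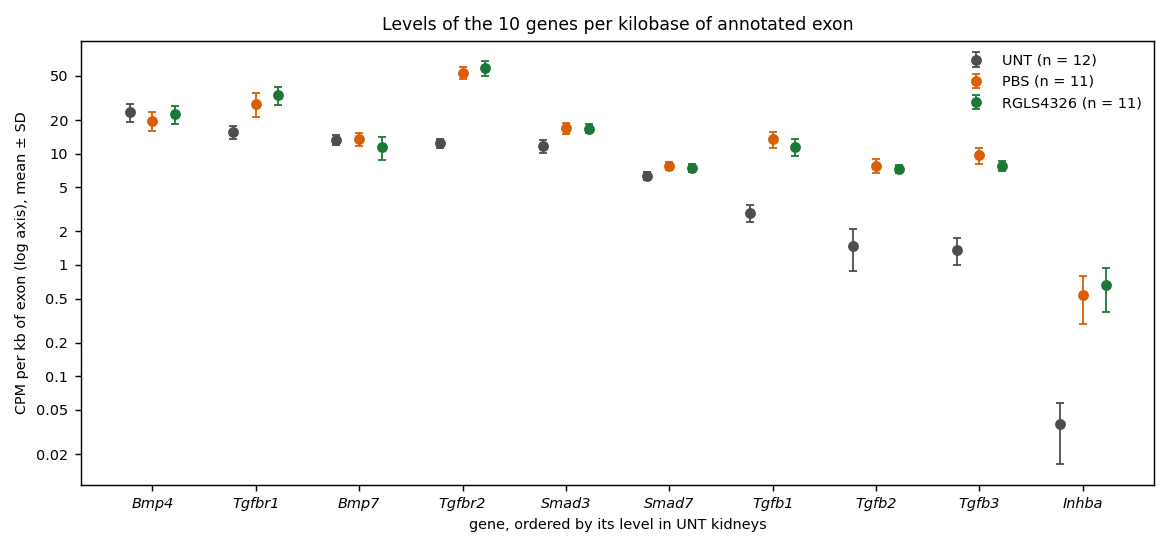
Mean ± SD of CPM per kilobase of exon on a log axis for the 10 genes in UNT (n = 12), PBS (n = 11) and RGLS4326 (n = 11) kidneys, ordered by the UNT level. *Tgfbr2* moves from 12.3 in UNT to 53.4 CPM per kb in PBS kidneys, above all others, while *Bmp4* and *Bmp7* stay near their UNT level.

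Ratios within a library do not depend on its scaling. The ratio of *Tgfbr2* to *Tgfbr1* per kilobase was 0.547 to 1.05 in UNT kidneys (median 0.785) and 1.20 to 3.06 in PBS kidneys (median 1.98), with no overlap, and 1.11 to 2.68 in RGLS4326 kidneys (median 1.66). Of the summed TGF-β ligand reads per kilobase, *Tgfb1* made up 51.1% ± 5.77 in UNT, 43.3% ± 3.20 in PBS and 42.9% ± 3.70 in RGLS4326 kidneys. *Tgfb3* made up 23.6% ± 4.54, 31.2% ± 2.26 and 29.4% ± 2.26, and *Tgfb2* 25.3% ± 8.01, 25.5% ± 3.64 and 27.7% ± 2.06. All 3 shares overlapped between UNT and PBS kidneys, and in the mean of each group *Tgfb1* was the most abundant TGF-β transcript. *Smad3* exceeded *Smad7* 1.44- to 2.41-fold per kilobase in UNT and 1.68- to 2.65-fold in PBS kidneys, ranges that overlapped.

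To examine whether miR-17 inhibition altered the pathway in cystic kidneys, RGLS4326 was compared with PBS, a comparison that shares its PBS mice with the one above. Only *Tgfb3* of the 10 genes was called, lower after RGLS4326, beside 33.8% of all tested genes (15.3% higher and 18.5% lower). The median log2 fold change of the 10 genes was -0.04, and the point estimates lay between -0.31 (*Tgfb3*) and 0.29 (*Inhba*). In each gene the RGLS4326 and PBS kidneys overlapped, as they did for nearly all genes, since 0.0447% of tested genes had all RGLS4326 kidneys above all PBS kidneys and 0.0192% had all below. A rise of at least 1 on the log2 scale, reached by none of the 10, was called for 0.492% of tested genes. With the share of reads outside genes as a covariate in edgeR, 0 of the 10 genes were called (2 at an unadjusted p under 0.05), and 145 genes were called in all in place of 5280. In that fit *Tgfb3* was at -0.26 on the log2 scale in place of -0.31 (adjusted p = 0.222), while *Tgfb1* went from -0.23 to -0.080 and *Bmp7* from -0.24 to -0.084.

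**Figure D3:**
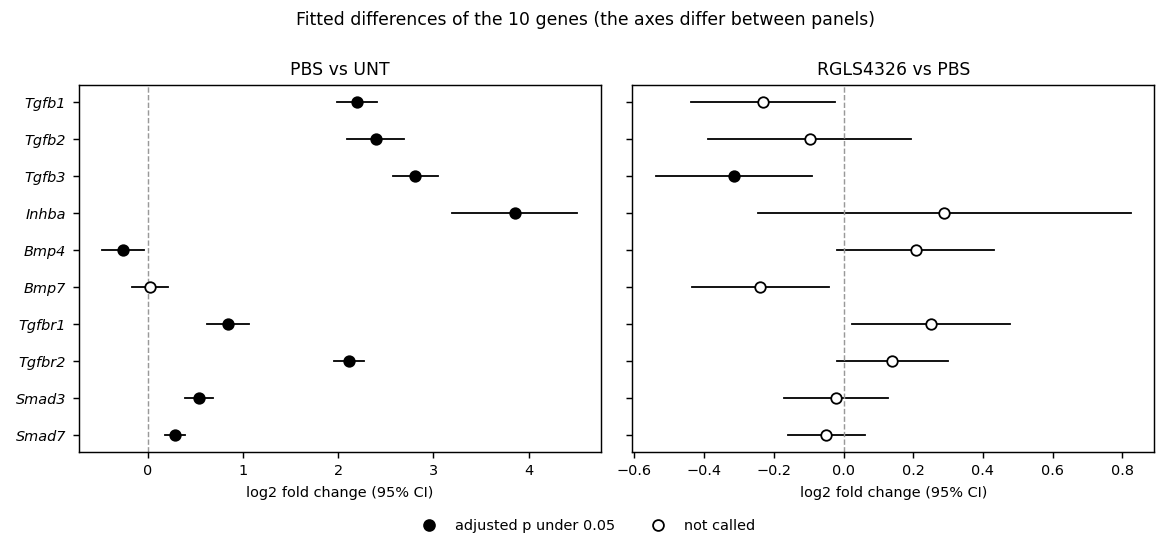
Fitted log2 fold changes with 95% confidence intervals for PBS vs UNT (left) and RGLS4326 vs PBS (right), filled where the adjusted p was under 0.05. The left intervals reach 4.51 (*Inhba*), whereas on the right all estimates lie between -0.31 and 0.29 and only *Tgfb3* is filled.

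*Tgfb3* was at 21.5, 26.4 and 31.3 CPM in RGLS4326 kidneys, and all 11 lay below the PBS mean of 32.6 CPM, 4 of them below the lowest PBS kidney. It fell to 0.804 of the PBS level (0.689 to 0.939, adjusted p = 0.0281). The call was lost without PBS replicate 2 (adjusted p = 0.0631), without RGLS4326 replicate 6 (0.0548) and without PBS replicate 9 (0.0520), while the log2 difference stayed between -0.34 and -0.26 over all 34 fits with 1 library left out. *Tgfb1* was at 42.3, 55.7 and 71.2 CPM, with a fold change of 0.852 (0.738 to 0.983) that missed the threshold (adjusted p = 0.0728). Leaving out RGLS4326 replicate 3, 4 or 10 or PBS replicate 5 or 7 gave *Tgfb1* an adjusted p between 0.0375 and 0.0479, and leaving out PBS replicate 9 gave 0.125. *Tgfb2*, at 35.9, 42.8 and 48.4 CPM, had a fold change of 0.935 (0.763 to 1.14, adjusted p = 0.61), and its RGLS4326 values fell inside the PBS range. The 3 ligands summed to 24.5, 31.7 and 36.7 CPM per kb (lowest, median and highest) in PBS and to 22.02, 26.0 and 31.4 CPM per kb in RGLS4326 kidneys, ranges that overlapped, and to 4.02, 6.09 and 7.28 CPM per kb in UNT kidneys.

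*Inhba* was at 2.11, 3.92 and 7.46 CPM in RGLS4326 kidneys, with 3 above the highest PBS kidney. The fold change of 1.22 had an interval from 0.843 to 1.77 (adjusted p = 0.395), the widest of the 10 genes. With the share of reads outside genes as a covariate the log2 difference of *Inhba* was 0.083 in place of 0.29 (adjusted p = 0.883). *Bmp4* was at 34.8, 50.8 and 64.8 CPM, with 8 of 11 RGLS4326 kidneys above the PBS mean, and a fold change of 1.15 (0.987 to 1.35, adjusted p = 0.139). *Bmp7* was at 33.7, 42.2 and 64.8 CPM, a range wider than that of either other group. Of the 11 RGLS4326 kidneys, 6 lay below the lowest PBS kidney and 2 above the highest, and the fold change was 0.847 (0.739 to 0.971, adjusted p = 0.0539). The *Bmp7* value sat at the threshold, being called with DESeq2 (adjusted p = 0.0464), with the numbering block as a factor (0.0494) and with the replicate number as a block (0.0456). It was also called without RGLS4326 replicate 4, 8 or 10, PBS replicate 3, 5 or 7 or UNT replicate 10 (0.0130 to 0.0454), but not without PBS replicate 9 (0.108).

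For the receptors, which carry miR-17 seed matches, the estimates were above 1. *Tgfbr2* was at 362, 495 and 590 CPM in RGLS4326 kidneys, with 8 of 11 above the PBS mean of 437 CPM. Its fold change of 1.10 (0.988 to 1.23, adjusted p = 0.153) did not pass the test. With the share of reads outside genes as a covariate its log2 difference was 0.26 in place of 0.14 (adjusted p = 0.0626). *Tgfbr1* was at 157, 209 and 289 CPM, with 10 of 11 above the PBS mean of 183 CPM, and a fold change of 1.19 (1.02 to 1.39, adjusted p = 0.0763). With the same covariate its log2 difference was 0.14 in place of 0.25 (adjusted p = 0.491). *Tgfbr1* was called without PBS replicate 5, the PBS kidney with the highest *Tgfbr1* (adjusted p = 0.0164), or without RGLS4326 replicate 8 (0.0383). It was not called without PBS replicate 9 (log2 difference 0.20, adjusted p = 0.119). *Smad3*, at 77.7, 95.7 and 104 CPM, had a fold change of 0.986 (0.889 to 1.09, adjusted p = 0.841). *Smad7*, at 29.4, 32.6 and 37.4 CPM, had a fold change of 0.966 (0.895 to 1.04, adjusted p = 0.479). Of the 4 genes with a match, *Tgfbr1* and *Tgfbr2* had estimates above 1, *Smad7* and *Tgfb3* below 1, and *Tgfb3*, the one that was called, was lower.

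The study's 18 signature genes were selected in cell lines as rising when miR-17 is inhibited, and its methods name 10 of them, without *Tgfbr2*, for *Pkd2*-KO kidneys. Of those 10, 6 rose with RGLS4326 relative to PBS, beside 15.3% of all tested genes, and the other 4 were not called. Their median log2 fold change was 0.31, beside 0.00 for all tested genes. How the 10 were picked from the 18 is not stated, so they may have been picked by their response in such kidneys. Of the other 8, used only in vitro, 2 fell (*Pfkp* and *Wfs1*, named after their values were seen), beside 18.5% of all tested genes. The remaining 6, *Tgfbr2* among them, were not called, and the median of the 8 was 0.02. The difference between these sets was not tested. In PBS vs UNT, *Tgfbr2* had the largest rise of the 18, whose log2 fold changes ran from -1.43 to 2.11.

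Library names in the tables carry a running number that starts again, which divides the mice into 3 numbering blocks with all groups in each. What the blocks stand for was not stated. Within blocks 1, 2 and 3 the log2 difference of *Tgfb3* between RGLS4326 and PBS was -0.57, -0.26 and -0.15, and that of *Tgfb1* was -0.29, -0.24 and -0.23. Neither was called within a block of 3 or 4 mice a group, and the estimates of both were negative in all 3. *Bmp7* was also negative in each block, at -0.10, -0.35 and -0.29, and *Tgfbr1* positive, at 0.09, 0.23 and 0.50. The other signs were mixed for *Inhba* (-0.58, 0.56 and 1.06), *Bmp4* (0.63, -0.21 and 0.20) and *Tgfbr2* (0.21, -0.0087 and 0.16). In PBS vs UNT the log2 differences were positive in all 3 blocks for the 8 genes that rose, for example 2.41, 1.73 and 2.44 for *Tgfb1*, 2.21, 1.89 and 2.18 for *Tgfbr2* and 5.31, 3.46 and 2.96 for *Inhba*. In block 3 alone, the block of PBS replicate 9, *Tgfbr1* (0.38, adjusted p = 0.121) and *Smad7* (0.24, adjusted p = 0.0801) were not called. *Bmp4* in PBS vs UNT was at -0.70 in block 1 and at -0.04 and -0.18 in the others.

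**Figure D4:**
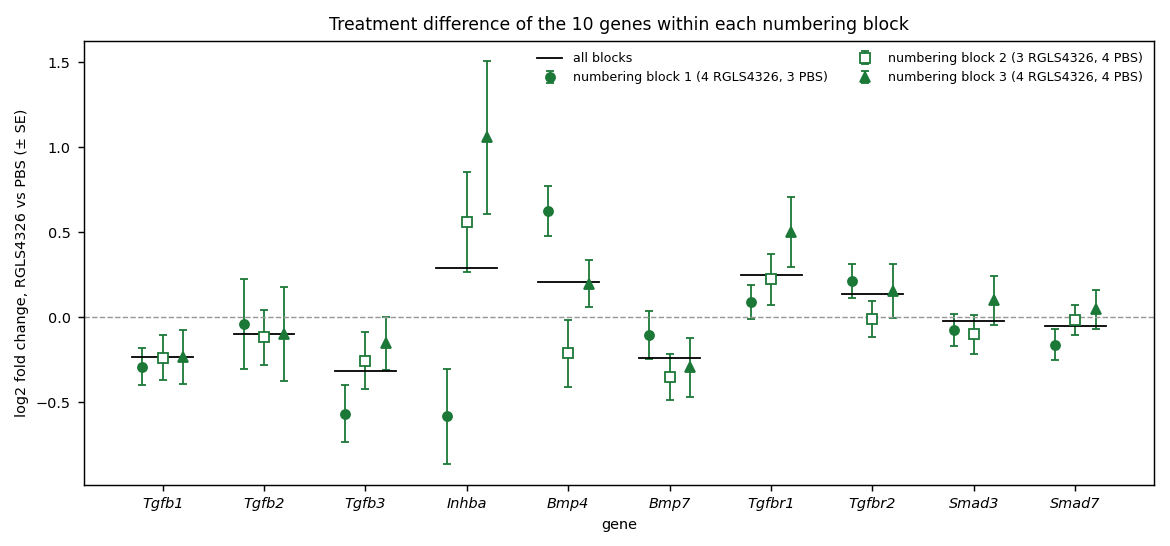
Log2 fold change (± SE) of RGLS4326 vs PBS for each of the 10 genes within each numbering block, with a line at the value from all blocks. *Inhba* and *Bmp4* differ in sign between blocks, whereas *Tgfb1*, *Tgfb2*, *Tgfb3* and *Bmp7* are below 0 and *Tgfbr1* above 0 in all 3.

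Treated cystic kidneys were also set against normal ones. In RGLS4326 vs UNT, 8 of the 10 genes were higher and 1 lower, beside 40.8% and 36.9% of all tested genes (77.7% in either direction). *Tgfb1* remained 3.89-fold (3.37 to 4.50), *Tgfb2* 4.90-fold (3.98 to 6.04), *Tgfb3* 5.64-fold (4.80 to 6.63) and *Tgfbr2* 4.77-fold (4.27 to 5.33) above UNT. *Inhba* was 17.6-fold (11.2 to 27.8), *Tgfbr1* 2.13-fold (1.83 to 2.49), *Smad3* 1.43-fold (1.29 to 1.58) and *Smad7* 1.18-fold (1.09 to 1.27) above UNT. In 7 of these 8 genes every RGLS4326 kidney lay above every UNT kidney, *Smad7* being the exception with 9 of 11, beside 20.7% of all tested genes (16.1% had every RGLS4326 kidney below). A rise of at least 1 on the log2 scale was called for 6 of the 10 genes, *Tgfbr1* now included, and for 16.7% of all. *Bmp4* stood at 0.964 of the UNT level (0.828 to 1.12, adjusted p = 0.664). *Bmp7* was lower, at 0.861 (0.753 to 0.984, adjusted p = 0.0379), a call that was lost in 10 of the 34 fits with 1 library left out (RGLS4326 replicates 1, 3, 5, 7, 9 and 11, UNT replicates 5, 7, 8 and 11, adjusted p up to 0.0816). Its log2 difference of -0.22 became -0.47 (adjusted p = 0.000105) with the share of reads outside genes as a covariate and -0.58 (adjusted p = 0.00267) in numbering block 2 alone, and was not called in block 1 (-0.13, adjusted p = 0.396) or block 3 (-0.062, adjusted p = 0.778). Library totals without TMM gave 0.076 (adjusted p = 0.475), but relative to the median of all tested genes *Bmp7* was at -0.24 with TMM and -0.25 without.

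The genes around the 10 were taken from a list of 86 pathway genes in 10 roles, 85 of them tested and 75 of these outside the 10. In PBS vs UNT, 50 of the 75 rose, 12 fell and 13 were not called, with a median log2 fold change of 0.58, beside the 43.1% and 39% of all tested genes given above. With treatment, 8 of the 75 rose and 9 fell (22.7% called), beside 33.8% of all genes (15.3% higher and 18.5% lower), a difference that was not tested. The counts by role and by cell type below are to be read against these shares of all tested genes. Without PBS replicate 9 these counts were 6 and 7, and over the fits with 1 library left out the number called ran from 11 to 24. Numbering block 2 alone gave 14 called genes of the 75 and block 1 gave 1. In edgeR, 0 were called in block 3 (13 at an unadjusted p under 0.05) and 0 with the share of reads outside genes as a covariate (15 at an unadjusted p under 0.05).

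**Figure D5:**
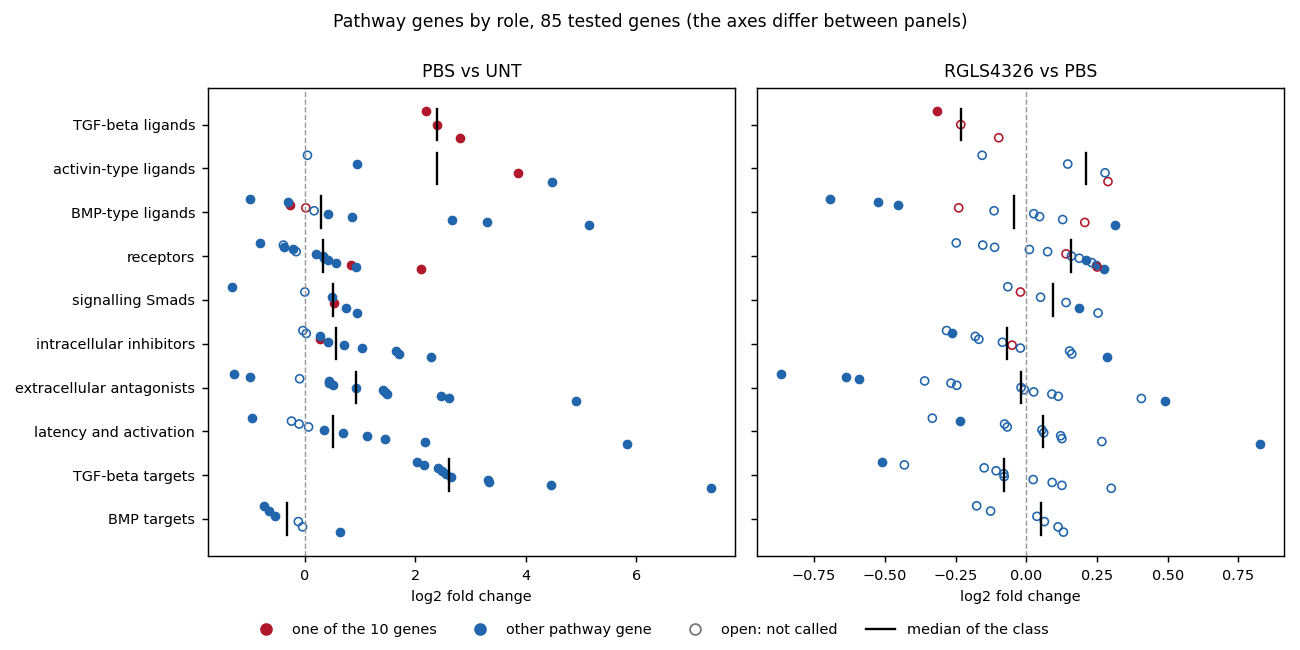
Log2 fold change of the 85 tested pathway genes by role for PBS vs UNT (left) and RGLS4326 vs PBS (right), with the 10 genes in red, called genes filled and a line at the median of each role. On the left all 10 TGF-β target genes lie above 2, and on the right most points are open and lie within 0.5 of 0.

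Among other ligands, the activin subunit *Inhbb* was at 1.18 to 2.47 CPM in UNT and at 24.7 to 49.3 CPM in PBS kidneys, a log2 rise of 4.48 (SE 0.16, adjusted p = 1.74e-23). *Gdf11*, a related ligand, rose by 0.95 (adjusted p = 5.02e-09), and neither was called in RGLS4326 vs PBS. Of 10 BMP-type ligands, *Bmp4* and *Bmp7* included, 5 rose and 3 fell in PBS vs UNT. In RGLS4326 vs PBS 1 of them rose and 3 fell, beside 15.3% and 18.5% of all tested genes. *Gdf6* rose from 0.0344 to 0.303 CPM in UNT to 2.89 to 6.51 CPM in PBS kidneys (log2 5.15, adjusted p = 3.21e-21), and *Bmp3*, which encodes an atypical BMP, by 2.66 (adjusted p = 2.21e-19). Both fell after RGLS4326, *Gdf6* by 0.69 (adjusted p = 0.00488) and *Bmp3* by 0.52 on the log2 scale (adjusted p = 0.00511), and both calls held in all 34 fits with 1 library left out.

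Of 13 receptors, 8 rose and 3 fell in PBS vs UNT, beside 43.1% and 39% of all tested genes. In RGLS4326 vs PBS 3 rose, beside 15.3% of all. *Acvr1* and *Acvrl1*, type I receptors of the BMP side, rose in PBS kidneys by 0.92 and 0.58 (adjusted p = 2.01e-15 and 6.53e-09). The BMP type I receptor *Bmpr1a* rose by 0.34 in PBS vs UNT (adjusted p = 0.000132) and by 0.25 in RGLS4326 vs PBS (adjusted p = 0.0178). *Acvr2a*, a type II receptor for activins and BMPs, fell by 0.37 in PBS vs UNT (adjusted p = 0.00019) and rose by 0.28 after RGLS4326 (adjusted p = 0.0183). Opposite-strand exons overlap 7.84% of the exon bases of *Acvr2a* and 4.57% of those of *Bmpr1a*, and 2.98% of those of *Acvrl1*.

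The 6 signalling Smads split by member. *Smad2*, partner of Smad3, rose by 0.95 (adjusted p = 1.64e-18) and *Smad1*, a BMP Smad, by 0.75 (adjusted p = 1.65e-14), and with *Smad3* and *Smad4* they made up 4 that rose beside 1 that fell. With treatment 1 of the 6 was called, the BMP Smad *Smad5*, which rose by 0.19 (adjusted p = 0.0296) and was called in 29 of the 34 fits with 1 library left out. Of 10 intracellular inhibitors, *Smad7* included, 8 rose in PBS vs UNT. *Pmepa1*, a TGF-β-induced protein that sequesters Smads, rose by 1.71 (adjusted p = 2.47e-19) and the co-repressor *Tgif2* by 2.28 (adjusted p = 3.57e-18), beside 0.28 for *Smad7*. Opposite-strand exons of 2 neighbours overlap 56.7% and 4.93% of the exon bases of *Tgif2* and, with the strand setting not stated, may have altered its count. *Pmepa1* fell by 0.26 after RGLS4326 (adjusted p = 0.0206), and *Skil*, a Smad co-repressor, rose by 0.29 (adjusted p = 0.0482). The *Skil* call was kept in 12 of the 34 fits and lost without PBS replicate 9 (adjusted p = 0.0791).

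Most secreted antagonists, which bind ligands outside the cell, were higher in cystic kidneys. Of 13, 10 rose and 2 fell in PBS vs UNT, beside 43.1% and 39% of all tested genes. In RGLS4326 vs PBS 1 rose and 3 fell, beside 15.3% and 18.5% of all. *Nbl1*, a BMP antagonist of the DAN family, was at 19.8 to 31.6 CPM in UNT, 99.6 to 255 in PBS and 79.5 to 149 CPM in RGLS4326 kidneys. It rose by 2.61 on the log2 scale with disease (adjusted p = 1.19e-19) and fell by 0.59 with treatment (adjusted p = 0.00236). *Fstl3*, which binds activins, rose by 1.49 in PBS vs UNT (adjusted p = 8.07e-16). Exons of *Prss57* on the opposite strand overlap 47.3% of its exon bases and, with the strand setting not stated, may have altered its count. *Kcp*, a secreted protein that enhances BMP and dampens TGF-β signalling, went the other way, at -1.28 in PBS vs UNT (adjusted p = 4.66e-13) and 0.49 in RGLS4326 vs PBS (adjusted p = 0.00334). The treatment calls of *Nbl1* and *Kcp* held in all 34 fits with 1 library left out, and both genes had the same sign in all 3 numbering blocks. Opposite-strand exons of 2 neighbours overlap 2.15% and 1.22% of *Kcp*.

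Of 10 genes for latency and activation of TGF-β, 6 rose and 1 fell in PBS vs UNT, beside 43.1% and 39% of all tested genes. *Ltbp2*, a latent TGF-β binding protein family member of the matrix, rose from 0.454 to 3.11 CPM in UNT to 48.0 to 145 CPM in PBS kidneys (log2 5.83, adjusted p = 8.13e-21), and *Thbs1*, an activator of latent TGF-β, by 2.18 (adjusted p = 2.16e-17). Exons of an opposite-strand gene overlap 9.34% of those of *Ltbp2*. After RGLS4326 *Ltbp3* fell by 0.23 (adjusted p = 0.041), a call kept in 22 of the 34 fits and lost without PBS replicate 9 (0.0664). The integrin subunit *Itgb8*, whose integrin activates latent TGF-β, rose by 0.83 (adjusted p = 0.0293) over a wide range of 3.09 to 49.2 CPM in PBS and 7.11 to 63.4 CPM in RGLS4326 kidneys, and was called in 31 of the 34 fits.

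Genes known as TGF-β targets rose together in cystic kidneys. All 10 of the list were called higher in PBS vs UNT, with a median log2 fold change of 2.61 and a range from 2.04 to 7.36. Of all tested genes 43.1% were called higher, and 18.2% were called higher by a log2 of at least 1. Whether TGF-β signalling raised these genes was not tested. *Timp1*, an inhibitor of matrix metalloproteases, rose from 0.113 to 0.631 CPM in UNT to 40.0 to 103 CPM in PBS kidneys (log2 7.36, adjusted p = 3.68e-24), and *Tagln*, a smooth muscle and myofibroblast protein, by 2.56 (adjusted p = 2.99e-23). An opposite-strand gene overlaps 62.4% of the exon bases of *Tagln*. Between RGLS4326 and PBS *Timp1* was at -0.43 (adjusted p = 0.0533), and the median of the 10 targets was -0.08.

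BMP target genes did not share that pattern. Of 6, *Id3* rose by 0.65 in PBS vs UNT (adjusted p = 3.43e-09), 3 fell, among them *Id4* by 0.73 (adjusted p = 8.98e-07) and *Id1* by 0.64 (adjusted p = 1.84e-06), and 2 were not called. After RGLS4326 the log2 differences of the 6 from PBS lay between -0.18 and 0.13, with the lowest adjusted p at 0.209 (*Id1*). These Id genes encode inhibitors of DNA binding that BMP Smads induce.

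Markers of other cell types also differed between the groups. Over all tested genes 43.1% were called higher and 39% lower in PBS vs UNT, and 15.3% and 18.5% in RGLS4326 vs PBS. In PBS vs UNT all 6 fibroblast markers rose, their sum reaching 406 to 883 CPM from 250 to 404 CPM in UNT, and stood at 708 to 960 CPM in RGLS4326 kidneys. All 6 macrophage markers rose, their sum going from 90.6 to 153 CPM in UNT to 557 to 1407 CPM in PBS, with 520 to 991 CPM in RGLS4326 kidneys. T-cell markers summed to 3.08 to 5.77, 9.63 to 27.7 and 6.76 to 14.3 CPM, while all 6 proximal tubule markers fell. All 4 podocyte markers fell, their sums running from 517 to 629, 204 to 315 and 275 to 346 CPM in UNT, PBS and RGLS4326 kidneys. Of 5 endothelial markers 2 rose and 3 fell, with sums of 398 to 494, 303 to 466 and 406 to 513 CPM. All 5 markers of principal cells of the collecting duct rose, summing to 420 to 730 CPM in UNT, 622 to 1901 CPM in PBS and 346 to 1650 CPM in RGLS4326 kidneys. After RGLS4326 3 of 6 macrophage markers and 3 of 4 T-cell markers fell, as did 3 of 5 principal cell markers, while 4 of 4 podocyte, 4 of 5 endothelial, 2 of 6 fibroblast and 3 of 6 proximal tubule markers rose, and no tested gene of these 7 lists was at 0 in any library. Of 4 thick limb markers 3 fell and 1 rose in PBS vs UNT, and 2 rose (*Umod* and *Slc12a1*) and 1 fell after RGLS4326. All 3 distal convoluted tubule markers fell in PBS vs UNT and 1 rose after RGLS4326, and of 4 intercalated cell markers 3 fell and 1 rose in PBS vs UNT and 1 fell after RGLS4326. Of 3 liver genes 1 rose and 2 fell in PBS vs UNT, and after RGLS4326 the 3 were not called. The part of these cells in the levels of the 10 genes was not tested.

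Within groups the 10 genes did not vary as one. After each group mean was subtracted from log2(CPM + 1), Pearson's r over the 34 mice, which share their libraries' depth and scaling, was 0.71 between *Tgfb1* and *Tgfbr2*, 0.61 between *Tgfb1* and *Tgfb3* and 0.64 between *Inhba* and *Tgfbr1*. It was -0.71 between *Bmp7* and *Tgfbr1* and -0.55 both between *Bmp7* and *Inhba* and between *Bmp4* and *Smad3*. *Tgfb2* was at or below 0.27 with each of the others. *Smad7* lay between -0.34 (with *Tgfbr2*) and 0.27.

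Among all tested genes, those most like each of the 10 in the same measure were *Dbn1* (0.89) and *Vat1* (0.88) for *Tgfb1*, and *Npr2* (0.82) and *Arsi* (0.80) for *Tgfb2*. For *Tgfb3* they were *Glipr2* (0.84) and *Tubb6* (0.83), and for *Inhba* *Tnfsf8* and *Fgf2* (both 0.88). *Rgcc* and *Glul* (both 0.83) were closest to *Bmp4*, and *Tmem9* (0.84) and *Nudt16l1* (0.82) to *Bmp7*. For the receptors they were *Man1a2* and *Bmpr1a* (both 0.89) with *Tgfbr1*, and *Timp2* and *Sgpl1* (both 0.85) with *Tgfbr2*. *Cnksr3* (0.81) and *5031439G07Rik* (0.76) were closest to *Smad3*, and *Usp36* (0.71) and *Flcn* (0.70) to *Smad7*, which had the weakest nearest neighbours of the 10. The likeness of *Tgfb2* came from UNT kidneys, where r with *Npr2* was 0.91, beside 0.50 in PBS and 0.27 in RGLS4326 kidneys. Some other pairs also differed by group. *Inhba* with *Tnfsf8* was at 0.07 in UNT, 0.93 in PBS and 0.90 in RGLS4326 kidneys. *Smad3* with *Cnksr3* was at 0.88, 0.91 and 0.37.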

How the data were processed

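RNA was extracted from flash-frozen kidneys, and stranded mRNA libraries were sequenced as paired ends. The authors trimmed reads with Trim Galore, mapped them with STAR to GRCm38 (mm10) and counted unique reads in genes with HTSeq (version 0.6.1 in the submitters' processing notes). The deposited tables, 1 for each mouse, hold whole-number counts of reads by gene symbol, without normalization. The annotation and strand setting of the counting are not given in the sources used here. Totals of reads outside genes were left out of library sizes.

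Counts were scaled by TMM and tested in edgeR (version 4.0.16, R version 4.3.3) after filterByExpr, in a single quasi-likelihood fit of 3 groups without covariates, two-sided, with Benjamini-Hochberg adjustment over 15644 genes. Standard errors and 95% intervals came from the same fit. P-values measure the spread between mice. On simulated counts of 15561 genes for RGLS4326 vs PBS, 97 of 100 genes changed by a log2 of 1 and 67 of 99 changed by 0.5 were recovered, with 5 false calls among 169. The simulation gave all genes the same spread, changed few of them and held no blocks or outlying library. Its rates therefore need not hold for these data. Alternatives were RLE scaling, library totals, DESeq2 (version 1.42.0), no low-count filter, 2 groups only, numbering block, share of reads outside genes, replicate block, each numbering block alone and each library left out. Replicate numbers in the titles were shared between groups, but nothing in the labels pairs the mice. Exon lengths, overlaps and 3′UTRs came from GENCODE on GRCm38, and python (version 3.11.15) with pandas (version 2.3.3) and matplotlib (version 3.10.9) made the summaries. Beside the 10 genes, those named were, per role, the 2 with the smallest p in PBS vs UNT and in RGLS4326 vs PBS, and the 2 most alike genes of each. The 10 genes, the lists and the tests were chosen with earlier results of these data known, and library totals were added after seeing the data. A result of 1 gene of the lists is not reported here.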

Additional observations from a re-analysis of the deposited data

How the results depend on the processing

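In PBS vs UNT and RGLS4326 vs UNT, the 8 genes that rose were higher under each alternative run. In RGLS4326 vs PBS, where 1 of the 10 genes and 5280 of all genes were called, 2 of the 10 were called with DESeq2, with the numbering block as a factor and with the replicate block, and 0 with the share of reads outside genes as a covariate and in numbering blocks 1, 2 and 3 alone (edgeR, 2 of the 10 at an unadjusted p under 0.05 with the covariate and 3, 1 and 2 in the blocks). In all, 145 genes were called with that covariate (3359 at an unadjusted p under 0.05), 54 in block 1 alone, 4065 in block 2 alone and 0 in block 3 alone (by edgeR 3421, 6361 and 2826 at an unadjusted p under 0.05). The cause of the difference between blocks was not tested. Leaving out 1 library gave 0 to 4 of the 10 called in RGLS4326 vs PBS, 8 to 9 in the other comparisons, and 4023 to 6209 genes in all, the other comparisons keeping 12712 to 12916 (PBS vs UNT) and 12008 to 12379 genes (RGLS4326 vs UNT). Without PBS replicate 9 none of the 10 was called in RGLS4326 vs PBS (lowest adjusted p 0.0520).

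Signs changed mostly near 0. *Bmp7* in PBS vs UNT turned to -0.011 with RLE factors, -0.0091 with DESeq2, -0.021 without the filter, -0.39 with the covariate (adjusted p = 0.00927), -0.025 and -0.23 in blocks 1 and 2, and lay between -0.034 (without PBS replicate 9) and 0.051 with 1 library left out, being below 0 also without PBS replicate 8 or UNT replicate 10. Without TMM, *Bmp4* turned to 0.041 in PBS vs UNT and to 0.25 in RGLS4326 vs UNT (adjusted p = 0.0237), and *Bmp7* to 0.076 in RGLS4326 vs UNT, where the median of all genes rose to 0.33 in both comparisons and the places of both genes relative to it hardly moved. In RGLS4326 vs PBS, *Inhba* was at -0.58 in block 1, *Bmp4* at -0.21 and *Tgfbr2* at -0.0087 in block 2, *Smad3* at 0.023 with the covariate, 0.10 in block 3 and between -0.044 and 0.0023 with 1 library left out (above 0 without RGLS4326 replicate 6), and *Smad7* at 0.048 in block 3. *Bmp4* in RGLS4326 vs UNT was at 0.016 in block 3. *Smad7* in RGLS4326 vs UNT was not called in block 1 alone (0.14, adjusted p = 0.142). The cause was not tested for any of these.

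The replicate numbers did not pair the mice: same-numbered mice had correlations of their deviations between -0.28 and 0.39 (PBS and UNT, 2 of 11 above 0.1), -0.24 and 0.45 (RGLS4326 and PBS, 5 of 11) and -0.42 and 0.25 (RGLS4326 and UNT, 3 of 11), and 0, 1 and 1 mice were closest to their own number. With the replicate block *Bmp4* in PBS vs UNT lost its call (adjusted p = 0.0631) and *Bmp7* in RGLS4326 vs PBS gained one (-0.25, adjusted p = 0.0456), and no other call of the 10 genes changed. Depth limits *Inhba* in UNT kidneys most, with 1 to 19 reads.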
